A study of Mus musculus with 2 samples.

Results

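The motile cilium genes were taken as all genes of the counts matrix whose symbol begins with Dnah, Dnai, Dnal, Cfap, Rsph, Tekt or Drc followed by a digit, without symbols ending in os. The rule gave 66 of 25556 genes. These genes were measured by single-nucleus RNA-seq (snRNA-seq) of the brainstem of 1 female wildtype (WT) mouse and 1 female heterozygous (HET) littermate, both at postnatal day 41. The HET mouse carried the A1783V missense allele of *Scn1a*, which encodes the voltage-gated sodium channel Nav1.1, over a wildtype allele. The allele was activated in the whole body by crossing a floxed-stop male with a Sox2-Cre female, and both mice were on a C57Bl6 background. Each genotype was 1 library, so no test between genotypes could be made, and the mouse, its dissection and its genotype cannot be told apart.

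A motile cilium is a beating, hair-like extension built on an axoneme, a ring of doublet microtubules around a central pair. Axonemal dynein arms slide the doublets, while radial spokes, the nexin-dynein regulatory complex (N-DRC) and the central apparatus control when each arm is active. In the brain, tufts of motile cilia on ependymal cells move cerebrospinal fluid along the ventricles. Epithelial cells of the choroid plexus, which secrete this fluid, also carry clusters of cilia.

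The WT library held 70301390 unique molecular identifiers (UMIs, each counting 1 captured RNA molecule) in 9259 nuclei and the HET library 66176778 UMIs in 9022 nuclei. The libraries shared 23 cell barcodes. Levels are UMIs of a gene per 1e+06 UMIs (CPM) summed over the nuclei of a group. Intervals are exact at 95% (Poisson for levels, Clopper-Pearson for shares, conditional binomial for ratios) and cover counting error only. A gene with no UMI was compared at a floor of 3 counts over the group. The clusters are those deposited, made by the authors from expression in these same nuclei, so differences between clusters are descriptions and were not tested.

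The 66 genes together gave 58121 UMIs in WT and 46845 in HET, and 65 of them had at least 20 UMIs in both libraries together. Their summed level was 17744 CPM (17422 to 18070) in the cluster epend.1 and 688 CPM (683 to 692) in all other nuclei, a ratio of 25.8 (25.3 to 26.3). In WT alone the summed level in epend.1 was 18403 CPM, and in HET alone it was 16510 CPM. Of the 65 genes, 51 were at least 4-fold higher in epend.1 than in all other nuclei, a rule met by 9.92% of the 21997 genes with as many UMIs. The 4-fold count was 51 in WT and 50 in HET taken alone. Outside the ependymal clusters, the clusters with at least 100 nuclei ran from 405 CPM in oligo to 922 CPM in neuron.2 and 1016 CPM in neuron.6, with 710 CPM in neuron.1, 761 CPM in astro and 765 CPM in endo between them.

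The label epend.1 did not hold for all of its 174 nuclei. The authors' finer clustering at resolution 0.5 split the cluster into a group of 124 nuclei (82 WT, 42 HET) and a group of 50 (47 WT, 3 HET). In the group of 124, all 10 ependymal marker genes were at least 4-fold above nuclei outside the ependymal clusters, with a median ratio of 87.7. Their summed level was 5316 CPM in WT and 2966 CPM in HET, against 47.4 CPM outside. In nuclei of this group under 10000 UMIs it was 5294 CPM in WT and 4563 CPM in HET. Of the ependymal markers, *Hydin*, *Spag17*, *Ak7*, *Dynlrb2*, *Tmem212* and *Ccdc153* are also counted below as other axoneme genes, and *Foxj1* as a regulator of multiciliogenesis. The 124 nuclei are called ependymal-like. They were picked as the finer cluster rich in member UMIs, so their member levels are descriptions. In the group of 50, 6 of the 10 ependymal markers had no UMI, while the oligodendrocyte precursor (OPC) markers *Pdgfra*, *Cspg4* and *Vcan* reached 791, 341 and 1049 CPM. These 50 nuclei are called OPC-like from their summed markers, which does not name each nucleus. All 3 OPC markers had UMIs in the ependymal-like nuclei too, but at 3.68 to 7.36 CPM. The reference label deposited for 61 WT and 19 HET ependymal-like nuclei was ependymal. The other 23 HET nuclei were labelled as astrocytes (10), neurons (8), activated neurons (4) or microglia (1), with median member shares of 1.32% to 2.17%, against 3.14% for those labelled ependymal. Of the other WT nuclei 13 were labelled neurons, 3 activated neurons, 2 astrocytes, 2 oligodendrocytes and 1 qNSCs. Most OPC-like nuclei (44 WT, 2 HET) were labelled as neurons.

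The second cluster, epend.2, held 108 WT nuclei and 6 HET nuclei. All 8 choroid plexus markers were at least 4-fold higher there than outside, led in level by *Ttr*, the thyroid hormone carrier of the choroid plexus, at 16347 CPM. Of the 10 ependymal markers, 6 were also at least 4-fold higher there than outside. Summed, the ependymal markers were at 357 CPM, against 47.4 CPM outside and 4364 CPM in ependymal-like nuclei. The cluster is called choroid-plexus-like from here on.

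The member share of single nuclei had different medians in these groups, with overlapping ranges. In WT ependymal-like nuclei a median of 2.52% of UMIs came from the 66 genes (lowest 0.577%, highest 4.22%), and in HET the median was 2.62% (lowest 0.194%, highest 4.19%). In choroid-plexus-like nuclei the median was 0.552% in WT (lowest 0.144%, highest 1.09%) and 0.587% in HET (lowest 0.456%, highest 0.861%). OPC-like nuclei had medians of 0.109% in WT and 0.0389% in HET, against 0.0588% in nuclei outside the ependymal clusters, and reached 0.468% in WT and 0.860% in 1 of the 3 HET nuclei. The WT and HET ranges overlapped in the ependymal-like group. A median of 28 members was detected per ependymal-like nucleus in WT and 31 in HET, against 12 and 14 in choroid-plexus-like nuclei.

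**Figure D1:**
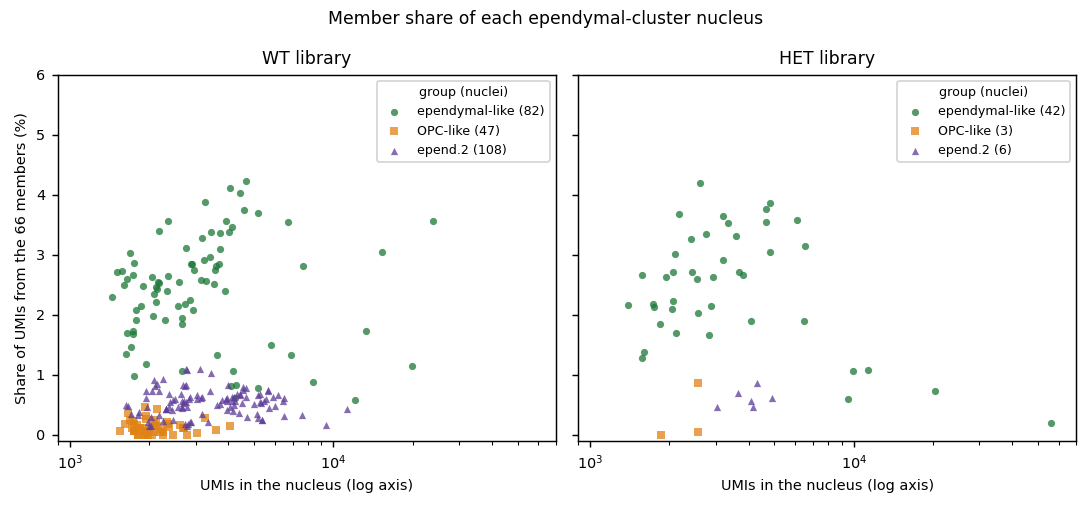
Share of UMIs from the 66 motile cilium genes (percent, y axis) against the UMIs of each nucleus (log x axis) for the ependymal clusters, WT left and HET right, 1 point per nucleus. The median ependymal-like nucleus lies at 2.52% in WT and 2.62% in HET, choroid-plexus-like nuclei (epend.2) have medians of 0.552% and 0.587%, and the HET panel holds 1 ependymal-like nucleus of 56047 UMIs at 0.194%.

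At least 5 member UMIs were found in 100% of the 124 ependymal-like nuclei (97.1% to 100%), at a median depth of 2888 UMIs. The same count was reached by 3.37% of oligo nuclei, which should lack motile cilia and had a median depth of 2807 UMIs. Over all nuclei outside the ependymal clusters, which were deeper with a median of 5638 UMIs, the share was 42.3%. Scaled to 1000 UMIs in each nucleus, 99.2% of ependymal-like (95.6% to 100%), 57.9% of choroid-plexus-like and 0.0222% of outside nuclei kept the equivalent of at least 5 member UMIs. That last share is 4 of 17993 nuclei, 1 each in astro, endo, fibro and neuron.1. They were 1 HET nucleus in astro and 1 WT nucleus in each of the others.

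Against all nuclei outside the ependymal clusters, 51 of the 65 genes were at least 4-fold higher in the ependymal-like group, where 10.3% of all genes passed the same rule. The median ratio was 42.0 over the 65 genes, and 1.06 over all 21997 genes. Of the 65 genes, 22 were 64-fold or more higher, 22 between 16- and 64-fold, 7 between 4- and 16-fold, and 10 below 4-fold. The other 4 had no UMI there. The highest 2 ratios among the 65 were those of the heavy chain genes *Dnah6* and *Dnah12*, while the highest median by role was 82.9, for CFAP genes linked to spokes or dyneins. All of the 10 inner arm heavy chains passed 4-fold, with ratios from 12.8 to 1044.

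*Dnah12*, an inner arm heavy chain gene on chr14:26693274-26891703 (GRCm38), was at 2765 CPM (2586 to 2952) in WT and 2612 CPM (2403 to 2834) in HET ependymal-like nuclei. It was at 3.84 CPM outside the ependymal clusters, a ratio of 704 (636 to 779). *Dnah6*, an inner arm heavy chain gene on chr6:73017606-73221651, was at 1392 CPM in WT, 963 CPM in HET and 1.17 CPM outside, a ratio of 1044 (876 to 1250). A UMI of *Dnah12* was found in 97.6% of ependymal-like nuclei and in 0.819% of oligo nuclei, or in 84.5% and 0.289% when 1000 UMIs were drawn from each nucleus. Both genes were high in each library. The HET levels given for ependymal-like nuclei here and in the next paragraphs include 1 nucleus of 56047 UMIs with the reference label of neurons. It held 25.5% of the UMIs of this HET group and 109 member UMIs. Without it the summed HET level of the members was 22048 CPM in place of 16930 CPM. The libraries are set side by side in nuclei under 10000 UMIs further below.

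The outer arm, which supplies most of the beating force, was carried by *Dnah5*, *Dnah9* and *Dnah11*. *Dnah5* was at 560 CPM (481 to 647) in WT and 327 CPM (256 to 412) in HET, a ratio to outside nuclei of 278 (231 to 334). *Dnah9* was at 1014 CPM in WT and 663 CPM in HET, with a ratio of 27.9 (25.3 to 30.7), and *Dnah11* at 841 and 622 CPM, with a ratio of 76.0 (67.9 to 85.0). The outer arm genes *Dnah8* and *Dnah17*, known from sperm flagella, were not raised. *Dnah8* had no UMI in ependymal-like nuclei, where 3 counts correspond to 5.52 CPM, and *Dnah17* had 1 UMI, or 1.84 CPM against 6.24 CPM outside.

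Of the 2 light chain genes that the rule found, the outer arm light chain gene *Dnal1* was at 427 CPM in WT and 182 CPM in HET ependymal-like nuclei against 42.8 CPM outside, a ratio of 7.65 (6.56 to 8.89). The light chain gene *Dnal4* had only 10 UMIs there, with a ratio of 2.42 (1.16 to 4.47). Both ratios were below those of all 10 inner arm heavy chain genes.

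Among 8 radial spoke genes, 5 passed 4-fold. *Rsph4a*, a spoke head gene, was at 186 CPM in WT and 141 CPM in HET, a ratio of 138 (106 to 180), and the spoke gene *Rsph1* was at 127 and 104 CPM, a ratio of 42.0 (31.7 to 54.8). *Rsph10b*, *Rsph9* and *Rsph3b* had ratios of 21.7, 8.82 and 8.07. *Rsph14* had a ratio of 3.74 and *Rsph3a* of 1.59 (0.98 to 2.43), both below the rule. *Rsph6a*, the testis paralog of *Rsph4a*, had no UMI in ependymal-like nuclei and 68 UMIs in all nuclei.

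All 3 N-DRC genes passed. *Drc1* was at 250 CPM in WT and 191 CPM in HET (ratio 25.5), *Drc3* at 269 and 127 CPM (ratio 17.9), and *Drc7* at 254 and 150 CPM (ratio 358, 267 to 483). Among the 5 tektin genes, whose products form filaments inside the doublets, *Tekt1* was at 111 CPM in WT and 114 CPM in HET with a ratio of 169 (120 to 236). *Tekt4* had 7 UMIs in these nuclei (ratio 40.6, 15.4 to 90.9), and *Tekt3*, with 11 UMIs there, was the 1 member under the minimum of 20 UMIs in all nuclei. *Tekt2* had none and *Tekt5* had 2, with 100 and 615 UMIs over all nuclei.

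The CFAP genes fell into groups by known role. All 9 genes of the central apparatus passed 4-fold, with a median ratio of 38.7, and among them *Cfap221* was at 161 CPM in WT and 195 CPM in HET (ratio 282, 208 to 383). All 8 genes linked to spokes or dyneins passed with a median of 82.9, and *Cfap73*, whose product binds inner arm dynein, had a ratio of 130. The 7 genes for proteins inside the doublets also all passed, *Cfap52* with a ratio of 237 and *Cfap161* with one of 178. *Cfap20*, another of the 7, passed narrowly, with a ratio of 4.13 and an interval reaching below the rule (3.31 to 5.08). Of the 9 other CFAP genes only 3 passed, *Cfap299*, *Cfap97d2* and *Cfap298*. *Cfap299* was at 2400 CPM in WT and 1458 CPM in HET, a ratio of 176 (163 to 191). *Cfap36*, *Cfap97*, *Cfap300*, *Cfap157* and *Cfap410* had ratios from 0.96 to 3.52, and *Cfap97d1* had no UMI in ependymal-like nuclei.

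**Figure D2:**
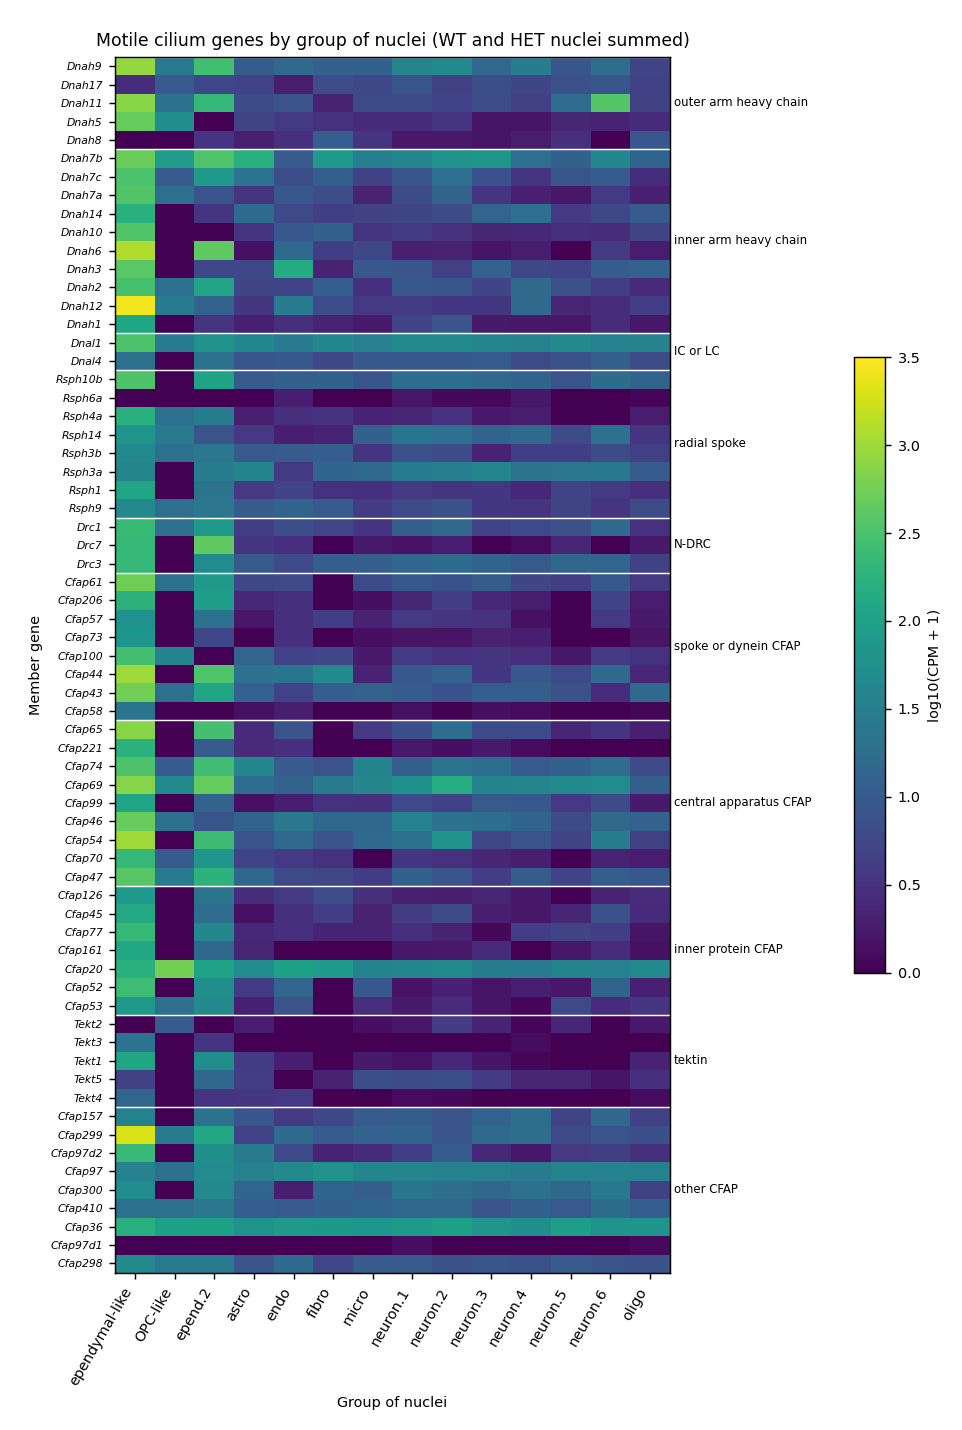
log10(CPM + 1) of each of the 66 genes (rows, grouped by role) in each group of nuclei (columns, WT and HET nuclei summed, clusters of at least 100 nuclei). The ependymal-like column is bright for most rows and the epend.2 column for a subset, while *Cfap36* and *Cfap97* have UMIs in every column and vary less than most rows.

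Promoters of members are shown to place the gene group beside the motif of its known regulators. RFX factors bind the X-box and FOXJ1 binds forkhead motifs, and both are known to control motile cilium genes. RefSeq promoter windows (GRCm38.p6, 250 bases before to 50 bases after the gene start) were matched by symbol for 55 of the 66 genes, taking the first window listed for a symbol. The core of the X-box, GTTGCC, searched on both strands, lay in 19 of the 55 windows (34.5%) and in 12.7% of 27025 windows of all genes. A longer form, the core followed by NNGG, lay in 7 of the 55 (12.7%) and in 2.29% of all. The full X-box palindrome lay in 1 window, that of *Cfap298* (0.444% of all), and the forkhead motif GTAAACA in 4 (7.27%) against 3.55%. A match is a run of letters and not a shown binding site. Only these spellings were searched, so a window without a match can still hold another form of the X-box. Of the 6 windows below, those of *Dnah10*, *Tekt1* and *Cfap44* held 2 cores each. That of *Dnah6*, which had the largest ratio, held no GTTGCC, though it holds the related run gttgctaagcaac, which was not searched. The paralogs *Dnah7a* and *Dnah7b* share sequence and had different levels in astro nuclei. All 6 windows run 5′ to 3′ on the strand of the gene, with matches to the searched spellings in capitals.
Dnah10: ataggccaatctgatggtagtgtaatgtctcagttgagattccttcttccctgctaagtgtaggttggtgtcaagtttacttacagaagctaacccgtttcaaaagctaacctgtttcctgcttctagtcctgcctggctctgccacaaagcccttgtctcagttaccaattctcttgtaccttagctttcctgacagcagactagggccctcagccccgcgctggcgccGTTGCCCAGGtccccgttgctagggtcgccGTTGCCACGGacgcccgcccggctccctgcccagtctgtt
Tekt1: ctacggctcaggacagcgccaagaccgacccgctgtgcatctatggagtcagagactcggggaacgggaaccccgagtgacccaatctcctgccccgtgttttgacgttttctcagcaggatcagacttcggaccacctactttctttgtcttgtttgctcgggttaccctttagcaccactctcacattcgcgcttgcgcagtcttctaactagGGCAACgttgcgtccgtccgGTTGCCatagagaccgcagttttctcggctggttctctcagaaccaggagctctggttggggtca
Cfap44: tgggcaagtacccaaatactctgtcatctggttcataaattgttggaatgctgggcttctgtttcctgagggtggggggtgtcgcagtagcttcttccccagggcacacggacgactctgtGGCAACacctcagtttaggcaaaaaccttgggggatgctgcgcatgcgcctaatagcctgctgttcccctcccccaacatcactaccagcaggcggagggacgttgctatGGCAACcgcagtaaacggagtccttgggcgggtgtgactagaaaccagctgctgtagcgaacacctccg
Dnah6: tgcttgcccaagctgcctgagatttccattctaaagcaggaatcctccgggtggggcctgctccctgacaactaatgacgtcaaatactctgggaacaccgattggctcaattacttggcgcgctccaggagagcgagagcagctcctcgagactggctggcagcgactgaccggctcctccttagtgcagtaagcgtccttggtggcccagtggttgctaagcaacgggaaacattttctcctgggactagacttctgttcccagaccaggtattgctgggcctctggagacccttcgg
Dnah7a: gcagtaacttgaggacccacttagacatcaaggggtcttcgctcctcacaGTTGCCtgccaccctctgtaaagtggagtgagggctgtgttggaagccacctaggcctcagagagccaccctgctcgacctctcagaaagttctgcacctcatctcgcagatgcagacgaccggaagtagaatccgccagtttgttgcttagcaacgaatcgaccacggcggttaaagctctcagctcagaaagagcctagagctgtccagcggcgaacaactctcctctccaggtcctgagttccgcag
Dnah7b: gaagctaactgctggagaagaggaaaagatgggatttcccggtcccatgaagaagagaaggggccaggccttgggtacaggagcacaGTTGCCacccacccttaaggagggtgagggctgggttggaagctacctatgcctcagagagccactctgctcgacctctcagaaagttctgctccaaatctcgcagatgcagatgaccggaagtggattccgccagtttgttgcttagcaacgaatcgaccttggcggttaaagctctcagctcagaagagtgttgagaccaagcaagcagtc
The windows are chr5:124724835-124725134, plus strand for *Dnah10*, chr11:72361833-72362132, minus strand for *Tekt1* and chr16:44394549-44394848, plus strand for *Cfap44*. They are chr6:73221582-73221881, minus strand for *Dnah6*, chr1:53706735-53707034, minus strand for *Dnah7a* and chr1:46066603-46066902, plus strand for *Dnah7b*. The windows of *Tekt1* and *Dnah7b* are set from RefSeq gene starts and lie inside the GENCODE vM21 bounds of these genes. Those bounds are chr11:72344722-72362442 and chr1:46066315-46373546, so these windows are not upstream of the GENCODE gene starts. The longest run of bases shared by the *Dnah7a* and *Dnah7b* windows was 33, against 7 for *Dnah7a* and *Dnah6*.

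The choroid-plexus-like cluster carried part of the gene group. Its summed level was 5310 CPM (5085 to 5542) in WT and 6133 CPM (5185 to 7205) in HET. Of the 65 genes, 37 were at least 4-fold above nuclei outside the ependymal clusters, a rule met by 9.66% of all genes, and all 37 were among the 51 of the ependymal-like group. Some of the 37 rested on few UMIs here, such as *Tekt4* on 1 (ratio 7.49, 0.19 to 44.0), *Cfap73* on 2 and *Cfap221* on 4. *Drc7* was higher here than in ependymal-like nuclei, at 441 CPM (378 to 512) in WT and 456 CPM (228 to 816) in HET, or 2.09 times their level. *Cfap69*, of the central apparatus, was at 467 and 456 CPM (WT and HET), and *Dnah6* at 419 and 663 CPM. *Cfap74* was at 257 and 414 CPM, 0.813 times its level in ependymal-like nuclei. The 6 HET nuclei gave only 10 to 16 UMIs for each of these genes, so their intervals were wide.

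A second set was near absent there. *Dnah12* had 5 UMIs in the 114 choroid-plexus-like nuclei, or 11.9 CPM (3.86 to 27.7), against 2703 CPM in ependymal-like nuclei. *Dnah5*, *Dnah10* and *Cfap100* had no UMI, where 3 counts correspond to 7.13 CPM, against 465.5, 359 and 283 CPM in ependymal-like nuclei. *Dnah1*, *Dnah3*, *Dnah7a*, *Dnah14* and *Cfap46* were at 2.38 to 7.13 CPM, against 118 to 489 CPM. Of the 56 members with at least 20 UMIs in both groups together, 26 were at least 4-fold lower than in ependymal-like nuclei and 0 were 4-fold higher. The ependymal-like group was picked as rich in member UMIs, and a gene could reach the minimum through that group alone, as *Dnah5* and *Dnah10* did. Both choices favour lower ratios, so these counts are descriptions. Over all 8502 genes with as many UMIs, 10.7% were 4-fold lower and 5.48% were 4-fold higher, and the median ratio was 0.281 for the members and 1.09 for all genes. Of 78 other axoneme genes with as many UMIs, 38 were at least 4-fold lower than in ependymal-like nuclei and 0 were 4-fold higher, with a median ratio of 0.267. As examples chosen after their values were seen, *Spag17*, *Wdr49*, *Ttc29* and *Ccdc180* were at 896, 892, 326 and 346 CPM in ependymal-like nuclei and at 4.76, 2.38, 0 and 0 CPM in choroid-plexus-like ones, whereas *Spag16* was at 1783 and 1053 CPM and *Lrriq1* at 686 and 773 CPM.

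**Figure D3:**
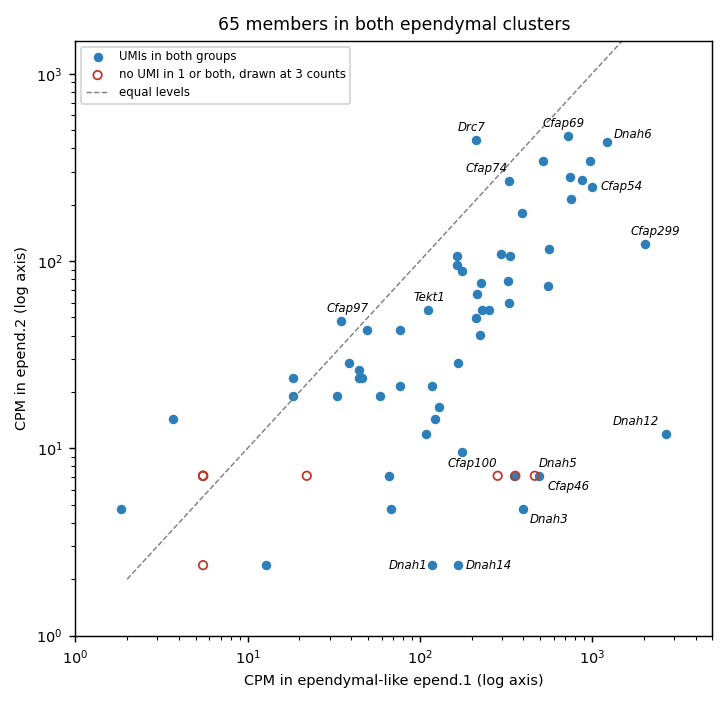
Level of 65 members in choroid-plexus-like nuclei (epend.2, CPM, log y axis) against that in ependymal-like nuclei (CPM, log x axis), WT and HET nuclei summed, with genes without a UMI drawn at 3 counts. *Drc7* lies above the line of equal levels, while *Dnah12*, *Dnah5*, *Dnah3* and *Cfap46* lie far below it.

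The OPC-like nuclei differed from both. Of the 65 genes, 9 were at least 4-fold above outside nuclei, against 5.99% of all genes, and 8 of those rested on at most 6 UMIs. The exception was *Cfap20*, whose product binds along the inner junction of the doublets, with 63 UMIs in 29 of the 50 nuclei. It was at 610 CPM (468 to 782) in WT and 143 CPM (3.62 to 796) in HET, with 1 UMI, against 40.1 CPM outside and 166 CPM in ependymal-like nuclei. No nucleus of this group held more than 7 *Cfap20* UMIs.

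Outside the ependymal clusters the genes were read at low levels in most clusters, with a few high in 1 of them. In each cluster with at least 100 nuclei, a gene was counted when it was at least 4-fold above all other nuclei outside the ependymal clusters. The counts of 65 were 6 in astro (6.17% of all genes), 6 in endo (11.2%), 3 in fibro (9.43%), 2 each in micro (3.41%), neuron.2 (1.04%) and neuron.6 (2.19%), and 1 each in neuron.4 (1.69%), neuron.5 (2.13%) and oligo (4.81%). Neither neuron.1 (1.14%) nor neuron.3 (1.06%) had such a member.

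*Dnah11*, on chr12:117877982-118199043, stood apart in neuron.6, a cluster of 120 WT and 5 HET nuclei. It was at 375 CPM (347 to 406) in WT and 144 CPM (46.8 to 337) in HET, from 628 and 5 UMIs, and at 5.29 CPM in the other nuclei outside the ependymal clusters, a ratio of 70.1 (62.9 to 78.2). A UMI was found in 88.0% of neuron.6 nuclei at a median depth of 12154 UMIs and in 1.16% of oligo nuclei at 2807 UMIs, or in 27.0% and 0.342% at 1000 UMIs. No other outer arm heavy chain passed 4-fold in neuron.6.

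*Dnah3* is an inner arm heavy chain gene on chr7:119922671-120095280. In endo (222 WT, 122 HET nuclei) it was at 104 CPM (80.7 to 131) in WT and 217 CPM (169 to 274) in HET. In the other nuclei outside the ependymal clusters it was at 7.61 CPM (ratio 18.5). The *Dnah3* signal in endo came from 23.8% of 344 nuclei, or 11.8% at 1000 UMIs, where astro had 1.52% and 0.450%. *Dnah6*, *Dnah12* and *Cfap52* also passed in endo, but on 15, 28 and 13 UMIs. Of these, 11, 24 and 1 came from a single WT endothelial nucleus of 14675 UMIs with a member share of 1.12%, which held 4 of the 141 *Dnah3* UMIs. Without that nucleus *Dnah3* was at 99.8 CPM in WT and 217 CPM in HET.

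*Dnah7b* was at 150 CPM (134 to 168) in WT and 178 CPM (162 to 195) in HET astro nuclei, 4.58 times the other nuclei outside the ependymal clusters. Its neighbours in sequence were low there, *Dnah7a* at 2.33 CPM and *Dnah7c* at 20.4 CPM over both libraries. In ependymal-like nuclei the 3 genes were at 519, 353 and 324 CPM. They are related copies on chromosome 1, so the division of reads among them is uncertain. *Cfap97d2* was also raised in astro, at 32.2 CPM in WT and 28.1 CPM in HET, with a ratio of 9.21 (7.56 to 11.2).

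In neuron.2, *Cfap69* was at 138 CPM (126 to 151) in WT and 176 CPM (158 to 195) in HET, and in oligo at 10.6 CPM over both libraries. It did not pass 4-fold in neuron.2, and was at 51.0 CPM over all nuclei outside the ependymal clusters. At 1000 UMIs, a UMI of *Cfap69* was found in 14.5% of neuron.2, 5.48% of neuron.1 and 4.50% of neuron.6 nuclei. *Cfap54*, of the central apparatus, was at 63.1 CPM in WT and 60.0 CPM in HET neuron.2 nuclei, 4.09 times (3.64 to 4.59) the other nuclei. *Dnah8*, which had no UMI in ependymal-like nuclei, was at 8.73 CPM in WT and 7.23 CPM in HET oligo nuclei, 8.94 times the rest. The members with the most UMIs outside the ependymal clusters were *Cfap36* (9807), *Cfap69* (6909), *Dnal1* (5794), *Dnah7b* (5508) and *Cfap20* (5434). *Cfap36* was at 74.2 CPM in WT and 75.7 CPM in HET neuron.1 nuclei and at 59.7 and 65.3 CPM in oligo.

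**Figure D4:**
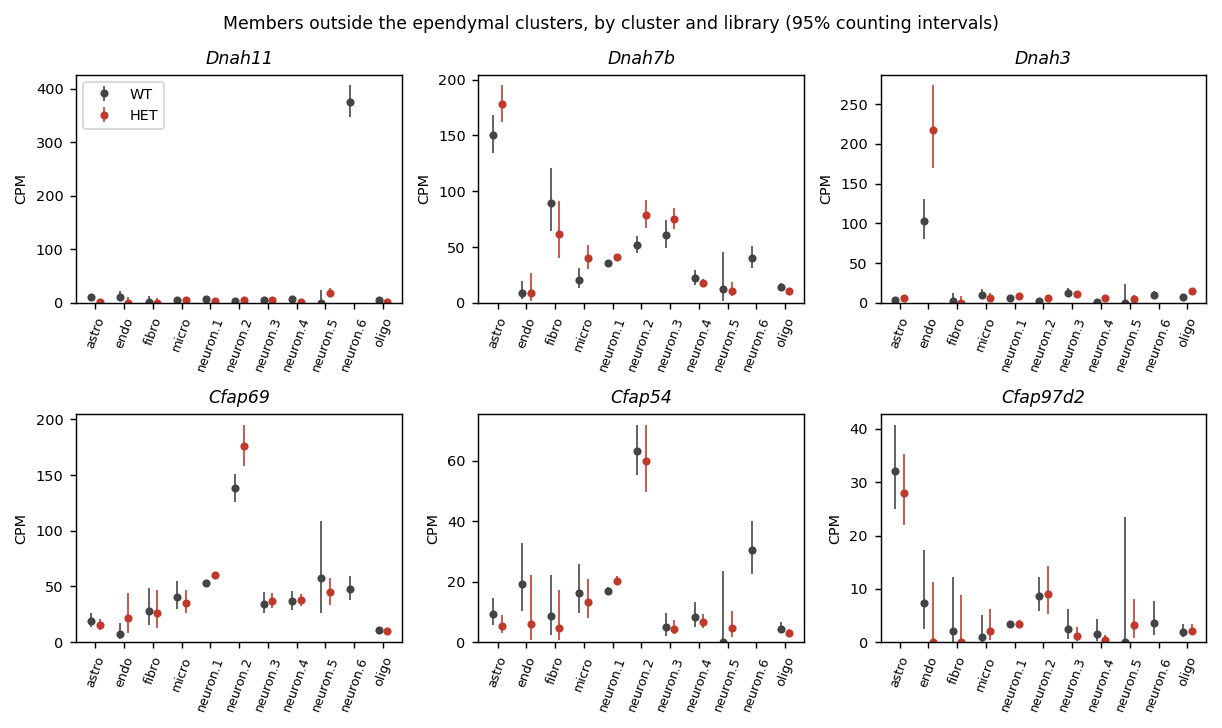
CPM of 6 members (y axes from 0) in each cluster outside the ependymal clusters (x axes), WT grey and HET red, with exact 95% Poisson intervals, for clusters with at least 20 nuclei in the library. *Dnah11* is high in WT neuron.6, *Dnah7b* and *Cfap97d2* in astro, *Dnah3* in endo, and *Cfap69* and *Cfap54* in neuron.2. Of these, *Cfap69* did not pass 4-fold in its cluster.

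The rest of the ciliary machinery was read from lists of genes outside the symbol rule. Of 83 other axoneme genes with at least 20 UMIs, 76 were at least 4-fold higher in ependymal-like nuclei, with a median ratio of 56.8, and 58 in choroid-plexus-like nuclei. The 83 include *Hydin*, *Spag17*, *Ak7*, *Dynlrb2*, *Tmem212* and *Ccdc153*, which were also markers that gave the ependymal-like group its name. Among the 76 were the intermediate chain genes *Dnaic1* and *Dnaic2* and the light chain gene *Dnali1*, whose symbols the rule did not match, with ratios in ependymal-like nuclei of 30.1, 32.1 and 192. Of 15 dynein arm assembly factors, 11 passed in ependymal-like nuclei and 10 in choroid-plexus-like nuclei, among them *Dnaaf3* at 302 CPM against 0.539 CPM outside. Of 15 regulators of multiciliogenesis, 10 and 5 passed. *Foxj1*, the master factor of motile cilia, was at 84.6 CPM in ependymal-like and 57.1 CPM in choroid-plexus-like nuclei against 3.68 CPM outside, and *Gmnc*, which starts the multiciliated fate, was at 29.4, 1819 and 2.97 CPM. For genes shared with immotile cilia, 7 of 29 intraflagellar transport genes passed in ependymal-like and 0 in choroid-plexus-like nuclei, and 4 and 2 of 32 primary cilium genes. Over all genes 10.3% and 9.66% passed these rules, so the primary cilium counts lay near the background. None of 16 cytoplasmic dynein genes passed in either, with a median ratio of 0.781 in ependymal-like nuclei.

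Markers of the other cell types were read in the same nuclei. In ependymal-like nuclei 0 of 4 neuronal, 0 of 5 oligodendrocyte and 0 of 3 endothelial markers were 4-fold raised. Higher there were 2 of 6 astrocyte markers (*Aqp4* and *Gja1*), 3 of 8 choroid plexus markers, and 1 each of the microglial, fibroblast and tanycyte markers. The summed neuronal markers were at 3405 CPM in WT and 6959 CPM in HET ependymal-like nuclei, against 11723 CPM outside the ependymal clusters. In ependymal-like nuclei under 10000 UMIs they were at 2974 CPM in WT and 2984 CPM in HET.

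Over all nuclei, the genes were mostly lower in the HET library. Of the 65 genes, 52 were lower and 13 higher in HET, where 58.9% of all genes were lower. The median log2 ratio of HET over WT was −0.36 for the 65 genes against −0.09 over all genes. Summed, they were at 827 CPM in WT and at 708 CPM in HET, and the log2 ratio was −0.22 (−0.24 to −0.21). In HET, 5 genes were at least 2-fold lower (4.94% of all genes) and 0 were 2-fold higher (5.1% of all genes). The lower genes were *Drc7* (298 UMIs in WT, 83 in HET, log2 ratio −1.76), *Dnah11* (1428 and 413, −1.70), *Dnah6* (718 and 284, −1.25), *Cfap65* (908 and 389, −1.14) and *Cfap126* (150 and 68, −1.05).

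The libraries also differed in how many nuclei of each kind they held. Ependymal-like nuclei were 0.886% (0.705% to 1.10%) of WT and 0.466% (0.336% to 0.629%) of HET nuclei, and choroid-plexus-like nuclei 1.17% (0.958% to 1.41%) and 0.0665% (0.0244% to 0.145%). With the same cluster weights in both libraries, the summed log2 ratio over all nuclei was −0.033 and 0 of the 65 genes were past 2-fold. Whether the tissue held fewer such cells or the dissection took fewer of them cannot be told apart.

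In all of epend.1, the summed level was 18403 CPM in WT and 16510 CPM in HET, giving −0.16 (−0.21 to −0.10) as log2 ratio, which was 0.0065 when the median of all genes was set to 0. This ratio depended on which nuclei were pooled. In ependymal-like nuclei alone the levels were 23797 CPM in WT and 16930 CPM in HET, giving −0.49 (−0.55 to −0.43). Of the 53 genes with at least 20 UMIs there, 49 were lower in HET, as were 58.1% of all genes, with a median log2 ratio of −0.43 against −0.16 over all genes. At least 2-fold lower were 10 (14.2% of all genes) and 1 was at least 2-fold higher (8.36%). A single HET nucleus with 56047 UMIs held 25.5% of the UMIs of this HET group and only 109 member UMIs, or 0.194%, and its reference label was neuron. Without it the HET level was 22048 CPM and the log2 ratio −0.11 (−0.17 to −0.05). In nuclei under 10000 UMIs (77 WT, 39 HET) the levels were 24518 CPM (23893 to 25154) in WT and 25309 CPM (24459 to 26181) in HET, and the log2 ratio was 0.046 (−0.02 to 0.11). The 3 deeper HET nuclei had summed neuronal markers of 12952 CPM and summed ependymal markers of 558 CPM, and the 5 deeper WT nuclei 4622 and 5379 CPM. The part of neuronal RNA in the difference was not tested.

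In all of epend.1, 5 of 54 genes were past 2-fold, 4 lower in HET (14.9% of all genes there) and 1 higher (6.42%). *Cfap298* had 27 UMIs in WT and 0 in HET, at least 4.81-fold lower, and *Cfap20* had 132 and 21 UMIs, of which 62 and 1 were from OPC-like nuclei. The other lower genes were *Cfap57* (26 and 6 UMIs) and *Cfap53* (35 and 9), and the higher one was *Rsph14* (18 and 21). In ependymal-like nuclei under 10000 UMIs, 27 of 50 genes were higher in HET and 23 lower, where 51.2% of all genes were lower. In HET, 2 were at least 2-fold higher, *Cfap221* at 147 CPM in WT and 310 CPM in HET (log2 ratio 1.08, 0.39 to 1.77) and *Rsph14* on 12 and 16 UMIs, where 4.62% of all genes were. At least 2-fold lower were 2, *Cfap70* at 310 and 151 CPM (−1.04, −1.83 to −0.31) and *Cfap57* on 20 and 5 UMIs, where 9.09% were.

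Several dynein heavy chain genes had overlapping WT and HET intervals in those nuclei. *Dnah6* was at 1407 CPM (1261 to 1566) in WT and 1435 CPM (1239 to 1655) in HET, *Dnah9* at 1072 and 990 CPM, *Dnah11* at 934 and 922 CPM and *Dnah5* at 578 and 514 CPM. *Dnah12* was higher in HET, at 2685 CPM (2481 to 2901) in WT and 3762 CPM (3439 to 4108) in HET, and *Cfap65* lower, at 1093 and 680 CPM (−0.68, −1.05 to −0.33). Of the 50 intervals, 5 lay above 0 and 5 below. These intervals cover counting error only, and the spread between mice is unknown.

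**Figure D5:**
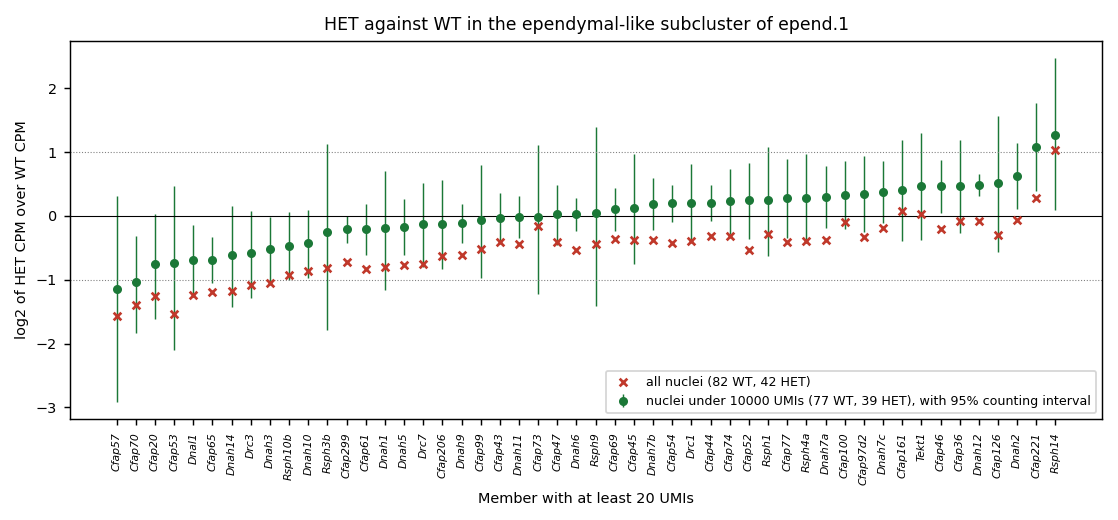
log2 of HET CPM over WT CPM for the 50 members with at least 20 UMIs in ependymal-like nuclei under 10000 UMIs (points, with 95% counting intervals) and for all ependymal-like nuclei (crosses). The points scatter around 0, and the crosses lie lower for all 50 genes.

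The related lists were read in the same nuclei. Summed levels in ependymal-like nuclei under 10000 UMIs were 27173 CPM in WT and 26352 CPM in HET for the other axoneme genes, 2031 and 1662 CPM for dynein arm assembly factors, and 3154 and 2954 CPM for intraflagellar transport. Primary cilium genes were at 2831 and 2720 CPM, regulators of multiciliogenesis at 1717 and 1435 CPM and cytoplasmic dyneins at 1813 and 1564 CPM.

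Outside the ependymal clusters the summed level was 694 CPM (687 to 700) in WT and 651 CPM (645 to 658) in HET. The log2 ratio was −0.09 (−0.11 to −0.07), and 0.0031 when the median of all genes was set to 0. In HET, 38 of 65 genes were lower, near the 57.8% of all genes that were. The median over the 65 genes was −0.08, as it was over all 21886 genes. Past 2-fold, 2 genes were lower (4.33% of all genes) and 2 higher (5.27%). *Dnah11* was lower, at 15.5 CPM in WT and 4.02 CPM in HET (−1.94, −2.14 to −1.75), and without neuron.6 it was at 6.59 and 3.95 CPM (−0.74, −0.97 to −0.52). *Cfap126* was lower on 114 and 53 UMIs. *Dnah14*, an inner arm heavy chain gene, was higher in HET, at 4.19 and 8.39 CPM (1.00, 0.79 to 1.21), and *Cfap221* was higher on 23 and 61 UMIs (1.48, 0.77 to 2.24). Among genes with at least 200 UMIs there, *Dnah3* (0.52) and *Dnah17* (0.48) were next on the higher side and *Cfap77* (−0.78) and *Cfap65* (−0.69) on the lower side. Within the largest neuronal cluster, neuron.1, the summed level was 712 and 708 CPM in WT and HET, and the log2 ratio was −0.01 (−0.03 to 0.02).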

How the data were processed

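The nuclei of both brainstems were captured in droplets and sequenced from the 3′ end of each RNA. The authors deposited raw UMI counts per gene and nucleus, made with Cell Ranger (version not given in the sources used here) on its mm10 reference and filtered in Seurat 4.1, with doublets removed before deposit. The doublet score is the authors' deposited value and entered no result. Clusters, finer clusters and reference labels were used as deposited. Counts were summed over groups of nuclei with Python 3.11.15, numpy 2.4.6, pandas 2.3.3 and scipy 1.17.1, and drawn with matplotlib 3.10.9. A gene was counted at 20 UMIs or more, 4-fold between groups or 2-fold between libraries. The functions were tested on simulated data. The members, the gene lists and the groups of nuclei were chosen with earlier results of these data known. Genes were named by rank of their ratios and UMIs, and all spoke, tektin, N-DRC and light chain members were allowed. *Dnah1*, *Dnah7a*, *Dnah7c*, *Dnah8*, *Dnah9*, *Dnah10*, *Cfap43*, *Cfap44*, *Cfap46*, *Cfap54*, *Cfap74*, *Cfap97d2*, *Cfap100*, *Cfap126*, *Cfap157*, *Cfap410* and the list genes were chosen after their values were seen. Positions are from GENCODE vM21 (GRCm38), which placed 64 of the 66 genes. Of these, 29 overlap a gene on the other strand, and how strand entered the counting is not given in the sources used here.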

Additional observations from a re-analysis of the deposited data

Results flagged for a closer look

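Several members had HET over WT log2 ratios of opposite sign in different cell groups, each with a counting interval clear of 0. With 1 library per genotype, none of these differences was tested. The ependymal-like values are those of nuclei under 10000 UMIs.

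*Dnah3* was higher in HET in oligo (1.14), neurons (0.48) and endo (1.07) and lower in ependymal-like nuclei (−0.51). *Cfap299* was higher in HET neurons (0.28) and lower in ependymal-like nuclei (−0.21). *Rsph14* was higher in ependymal-like nuclei (1.27, on 12 WT and 16 HET UMIs) and lower in neurons (−0.44). *Dnah2*, an inner arm heavy chain gene, was higher in ependymal-like nuclei (0.63) and lower in oligo (−1.63, on 16 WT and 7 HET UMIs) and neurons (−0.58), where 1 WT nucleus held 89 of the 572 WT UMIs. *Dnah12* was higher in ependymal-like nuclei (0.49) and neurons (0.41) and listed lower in endo (−2.01, on 25 WT and 3 HET UMIs). Of the 25 WT UMIs, 24 came from 1 endothelial nucleus, and without it there were 1 WT and 3 HET UMIs (2.60, −1.04 to 8.31), so the negative sign in endo rested on that nucleus, in an alternative chosen after seeing the data. *Cfap43* was higher in HET oligo (0.80) and lower in neurons (−0.30).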

How the results depend on the processing

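The count of genes 4-fold higher in epend.1 stayed between 49 and 53 under all 7 alternatives run. The summed ratio of 25.8 was 25.3 in HET alone, 43.9 in nuclei with the ependymal reference label and 30.6 in the ependymal-like group, an alternative chosen after seeing the data. Over all nuclei, the 5 genes past 2-fold became 0 with equal cluster weights, and the summed log2 ratio of −0.22 became −0.033; with the median of all genes, which lay at −0.10, set to 0 it was −0.12. Without neuron.6, also added after seeing the data, 4 genes were past 2-fold.

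Within epend.1 the direction of the summed ratio, −0.16, depended on the setting. It was 0.0065 with the median of −0.16 set to 0, 0.55 as the mean over nuclei and 0.089 with the ependymal label, and −0.22 without *Dnah12*, the member with most UMIs. Alternatives chosen after seeing the data gave −0.49 in all ependymal-like nuclei pooled and 0.030 as the mean over the same nuclei. They gave 0.046 in ependymal-like nuclei under 10000 UMIs and 0.46 in all epend.1 nuclei under 10000 UMIs. All of epend.1 also held the OPC-like nuclei, 47 in WT and 3 in HET. Their part in the 0.55 and the 0.46 was not tested. The 5 genes past 2-fold were 1 at 50 UMIs or more and 11 in ependymal-like nuclei. Outside the ependymal clusters, −0.09 became −0.024 with equal weights and 0.0031 with the median set to 0, where all genes shifted by −0.09. The share of outside nuclei with at least 5 member UMIs, 42.3%, was 0.0222% at 1000 UMIs, by construction of the thinning. No paired analysis was possible because each genotype was 1 library, and no replicate could be left out.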
